A study of Homo sapiens with 2 samples.

Results

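The genes described here are the 10 core genes of the TGF-β pathway, namely the ligands TGFB1, TGFB2 and TGFB3, the receptors TGFBR1 and TGFBR2, the receptor-regulated SMADs SMAD2 and SMAD3, the common SMAD SMAD4 and the inhibitory SMADs SMAD6 and SMAD7. They were chosen by name, with earlier results of these data known, so their shares describe these 10 genes only. All peaks of Flag-tagged ETV4 within 20 kb of their RefSeq spans were collected. This gave 45 of the 54389 peaks of the list, around 10 of 20033 protein-coding genes. The data came from ChIP-seq of A549 cells, an established human non-small cell lung cancer (NSCLC) line, that carried an shRNA against ETV4 (A549-shETV4) and were re-transfected with Flag-ETV4. The design had 1 anti-Flag immunoprecipitate and 1 input library of genomic DNA, with no replicate of either. The peaks therefore describe a tagged protein supplied from a plasmid in 1 line, no error between replicates can be given, and no test was possible. The antibody is named differently in the sample labels (Sigma) and in the study's methods (CST), and the input enters only through the enrichment that the peak caller gave each peak.

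TGF-β ligands are secreted in a latent form, and once released they bind TGFBR2, which recruits and phosphorylates the kinase TGFBR1. TGFBR1 phosphorylates SMAD2 and SMAD3, which join SMAD4 and enter the nucleus to act on target genes, while SMAD6 and SMAD7 dampen the signal and are themselves induced by ligands of the family. In lung carcinoma cells the pathway is known for driving epithelial-mesenchymal transition. ETV4 is a PEA3-subfamily ETS transcription factor, and ETS proteins recognise a GGAA core in DNA.

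Every one of the 10 genes had an ETV4 peak at its 5′ end, that is, a peak interval within 1 kb of the outermost transcript start. Among the 15841 protein-coding genes with a known strand, 61.3% had such a peak, and among the 8941 of them longer than 20 kb, the size class of all 10 genes, 68.1% did. With either end counted, the share was 62.1% of all 20033 protein-coding genes. No peak lay within 1 kb of the 3′ end of any of the 10 genes, against 9.56% of protein-coding genes with a known strand. Of the 45 peaks, 11 were 5′ end peaks and 34 were distal, meaning all others within 20 kb. The distal peaks comprised 18 inside a gene, 10 upstream and 6 downstream of it. A peak anywhere within 20 kb was common, at 86.1% of protein-coding genes, so its presence around all 10 says little about them.

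**Figure D1:**
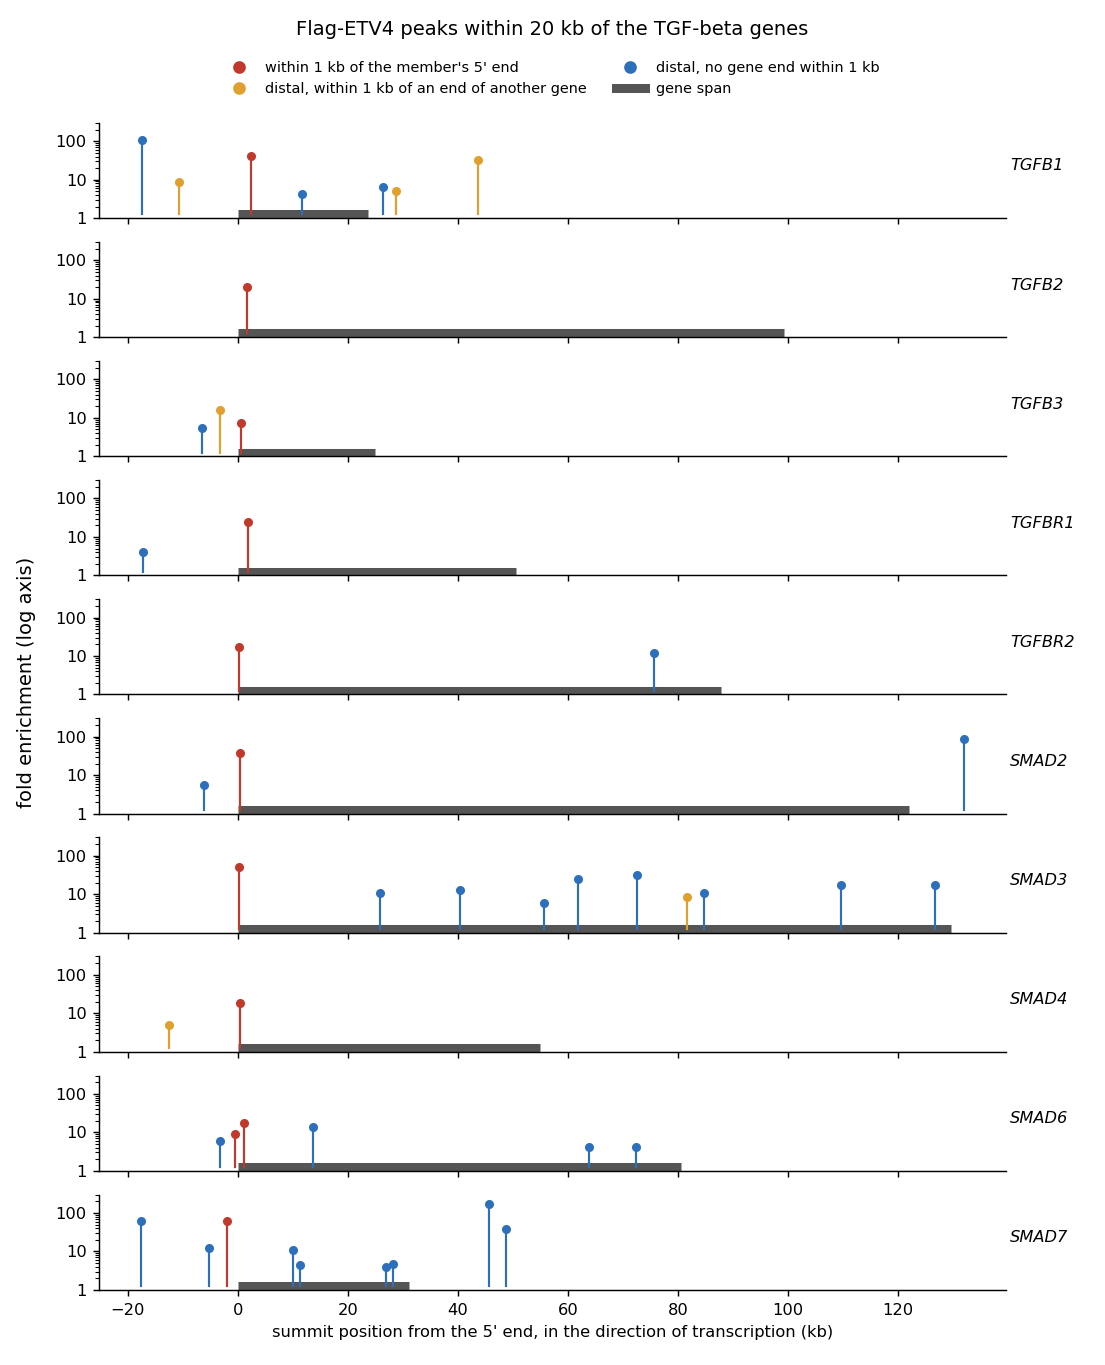
Position of the 45 peaks around the 10 genes. The horizontal axis gives the distance of each summit from the 5′ end in kb, in the direction of transcription, and the height of each stem its fold enrichment on a log axis. Each gene has a red 5′ end peak, SMAD3 has 9 further peaks inside its span, and the tallest stem, 168-fold, stands downstream of SMAD7.

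The sequences before the outermost starts of 6 of the genes are shown because their peaks span the range of fold enrichment. SMAD7, SMAD3, TGFB1 and SMAD2 had the strongest 5′ end peaks, TGFB3 had the weakest, and SMAD6 carried a rare SMAD motif. Each is the 250 bases before the start on GRCh38 (RefSeq), 5′ to 3′ on the strand of the gene. Capitals mark the ETS core GGAA, read as TTCC on the other strand, and the palindrome GTCTAGAC, which joins a pair of SMAD boxes (GTCT and its complement AGAC). The peak covered all 250 bases in each case except TGFB3, where it covered the 52 bases next to the start.
SMAD7, chr18:48950966-48951215, minus strand: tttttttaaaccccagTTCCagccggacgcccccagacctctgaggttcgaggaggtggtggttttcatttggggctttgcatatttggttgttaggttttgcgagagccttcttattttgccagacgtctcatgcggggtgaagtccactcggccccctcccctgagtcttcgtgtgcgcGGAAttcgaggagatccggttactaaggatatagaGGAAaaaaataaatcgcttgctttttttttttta
SMAD3, chr15:67065352-67065601, plus strand: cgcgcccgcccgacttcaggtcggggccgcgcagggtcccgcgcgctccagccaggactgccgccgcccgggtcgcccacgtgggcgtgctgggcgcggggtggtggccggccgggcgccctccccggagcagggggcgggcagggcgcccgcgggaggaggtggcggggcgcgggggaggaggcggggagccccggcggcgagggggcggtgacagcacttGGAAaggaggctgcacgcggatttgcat
TGFB1, chr19:41353923-41354172, minus strand: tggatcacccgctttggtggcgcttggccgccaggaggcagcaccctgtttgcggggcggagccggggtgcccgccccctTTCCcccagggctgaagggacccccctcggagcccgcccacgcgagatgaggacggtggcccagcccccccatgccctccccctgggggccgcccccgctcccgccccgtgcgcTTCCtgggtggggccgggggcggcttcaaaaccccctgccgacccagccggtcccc
SMAD2, chr18:47930873-47931122, minus strand: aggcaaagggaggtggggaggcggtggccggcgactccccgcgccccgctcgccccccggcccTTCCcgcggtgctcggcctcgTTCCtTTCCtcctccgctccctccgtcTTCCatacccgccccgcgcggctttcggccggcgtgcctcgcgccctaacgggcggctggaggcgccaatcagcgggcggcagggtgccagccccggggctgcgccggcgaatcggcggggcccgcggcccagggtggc
SMAD6, chr15:66701986-66702235, plus strand: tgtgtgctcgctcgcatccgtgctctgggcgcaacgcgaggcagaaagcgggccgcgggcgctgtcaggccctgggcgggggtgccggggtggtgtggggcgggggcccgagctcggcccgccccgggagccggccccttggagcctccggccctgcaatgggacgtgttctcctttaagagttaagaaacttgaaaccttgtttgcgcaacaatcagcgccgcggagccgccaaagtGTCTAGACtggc
TGFB3, chr14:75983012-75983261, minus strand: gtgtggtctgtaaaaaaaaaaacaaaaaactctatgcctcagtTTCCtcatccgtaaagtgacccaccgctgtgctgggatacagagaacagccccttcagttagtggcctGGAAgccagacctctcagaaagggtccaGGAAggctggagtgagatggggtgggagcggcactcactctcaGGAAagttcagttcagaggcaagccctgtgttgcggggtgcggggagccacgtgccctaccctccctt

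Within the covered stretches, SMAD2 held 4 GGAA cores, SMAD7 held 3, TGFB1 held 2, SMAD3 held 1 and SMAD6 held none. The 4 cores of the TGFB3 stretch lay outside the bases its peak covered. The summits lay outside all 6 stretches, so the sequence under them is not shown.

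The ligand genes, which encode the secreted TGF-β1, TGF-β2 and TGF-β3, had 11 peaks between them, of which TGFB1 had 7, TGFB3 had 3 and TGFB2 had 1. TGFB1 (chr19:41330323-41353922, minus strand) had a 5′ end peak of 3945 bp, wider than 99.9% of all peaks, with a fold enrichment of 41.4 and a −log10 q of 299.7. Its summit was 2391 bp inside the gene, and the pileup there was 236 fragments (exact Poisson 95% interval 206.8 to 268.1, counting error only) over a control level of 4.73. The interval also came within 1 kb of the end of B9D2. The strongest peak near TGFB1 was distal. It lay 17.4 kb upstream of the gene, at chr19:41370941-41371754 inside the neighbouring gene TMEM91, and was enriched 108-fold with 414 fragments piled up (375.1 to 455.9). It ranked 385 of all peaks by fold.

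The other 5 peaks around TGFB1 were mostly weaker or belonged as much to its neighbours. A peak of fold 31.8 stood at ends of CCDC97 and LOC105372401, at the far edge of the searched region, and 1 of fold 8.84 at the ends of B9D2 and TMEM91. The remaining 3 peaks had fold enrichments of 4.24, 5.03 and 6.53, the second of them also at an end of CCDC97. In all, 3 of the 6 distal peaks of TGFB1 were within 1 kb of an end of another gene, and distance alone does not assign them to TGFB1.

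TGFB2 (chr1:218345336-218444619, plus strand) had its only peak at the 5′ end. The peak was 2459 bp wide, with a fold enrichment of 19.6, a −log10 q of 66.2 and a pileup of 65 (50.2 to 82.9), and its summit lay 1649 bp inside the gene. The antisense gene TGFB2-AS1 also had an end within 1 kb of the interval.

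TGFB3 (chr14:75958097-75983011, minus strand) had the weakest 5′ end peak of the 10 genes. The interval was 825 bp wide, with a fold enrichment of 7.51, a −log10 q of 19.9 and a pileup of 35 (24.4 to 48.7), and its summit was 570 bp inside the gene. A stronger peak of fold 16.2 lay 3.23 kb upstream at an end of IFT43, a gene for an intraflagellar transport protein, and 1 of fold 5.41 lay further upstream inside IFT43.

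The receptor genes had 2 peaks each, the median number of all protein-coding genes. TGFBR1 (chr9:99103647-99154192, plus strand), the type I receptor kinase, had a 5′ end peak at chr9:99104300-99106014 with a fold enrichment of 25.1, a −log10 q of 85.9 and a pileup of 75 (59.0 to 94.0). It began 653 bp past the outermost start, and the summit was 144 bp before the seventh of the 8 starts listed for this gene. The other peak, 17.3 kb upstream, was the weakest of the 45, at 3.94-fold with 8 fragments (3.45 to 15.8).

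TGFBR2 (chr3:30606356-30694142, plus strand), the ligand-binding type II receptor, had a 5′ end peak at chr3:30606387-30607438 with a fold enrichment of 16.9, a −log10 q of 48.7 and a pileup of 50 (37.1 to 65.9). Its summit was 60 bp past the second listed start and 263 bp from an end of LOC105377015. A peak of fold 12.3 and pileup 30 (20.2 to 42.8) lay inside the gene, 12.2 kb before its 3′ end.

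Short stretches inside the 5′ end peaks of TGFBR2, TGFBR1 and SMAD2 show examples of ETS and AP-1 motif matches. The first is the 30 bases that hold a close pair of cores before the second start of TGFBR2. The next shows an AP-1 match (TGANTCA) at that same start. The last pair show CGGAAG, the ETS core with its preferred flank, at the fourth start of TGFBR1 and the second start of SMAD2. Capitals mark GGAA or TTCC and the AP-1 match.
TGFBR2, chr3:30606546-30606575, plus strand: gttggcgaggagtTTCCtgtTTCCcccgca
TGFBR2, chr3:30606588-30606608, plus strand: agttgagTGAGTCActcgcgc
TGFBR1, chr9:99104702-99104721, plus strand: accagatcTTCCgcgcctag
SMAD2, chr18:47930743-47930762, minus strand: cggagggcGGAAgcggaggt

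The receptor-regulated SMADs, the substrates of TGFBR1, both had strong 5′ end peaks, but their distal peaks were arranged differently. SMAD2 (chr18:47808957-47930872, minus strand) had a 5′ end peak of 1536 bp with a fold enrichment of 37.4, a −log10 q of 189.8 and a pileup of 150 (127.0 to 176.0). The summit lay 214 bp past the second listed start, and the long non-coding gene LOC124904297 had an end within 1 kb of the interval. A stronger peak stood outside the gene at chr18:47798446-47799257, 10.1 kb beyond the 3′ end, enriched 87.2-fold with 204 fragments (177.0 to 234.0) over a control level of 1.35. No annotated gene lay at this summit, and SMAD2 was the nearest gene. The third peak, 6.18 kb upstream, had a fold of 5.69 and its summit inside LOC124904297. No peak was found inside SMAD2 apart from that at its 5′ end.

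SMAD3 (chr15:67065602-67195169, plus strand) had 10 peaks, the most of the 10 genes, and all 9 distal ones were inside its span. The 5′ end peak was 3050 bp wide with a fold enrichment of 50.1, a −log10 q of 208.8 and a pileup of 144 (121.4 to 169.5), and its summit was 176 bp past the start. The divergent transcript SMAD3-DT also had an end within 1 kb of it. Among the internal peaks, the strongest was at chr15:67137883-67138670, enriched 31.8-fold with 96 fragments (77.8 to 117.2). Its summit lay 166 bp past the fourth of the 5 listed starts, so it was distal to the gene's outer end but at an alternative promoter.

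The other 8 internal peaks of SMAD3 lay between the 27.3 and 80.2 percentiles of all peaks by fold. A peak at chr15:67127173-67128319 had a fold enrichment of 24.6, and its summit was 1674 bp past the third start. Both peaks nearest to the 3′ end had folds of 17.1 and 17.7. The remaining 5 ranged from 5.95 to 13.1, and among them that of fold 8.56 was within 1 kb of an end of SMAD3-AS1. A core within the internal promoter peak, before the fourth start, is shown with GGAA in capitals.
SMAD3, chr15:67137950-67137969, plus strand: acttctaGGAAgggctgtat

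SMAD4 (chr18:51030213-51085042, plus strand), the common partner of the receptor-regulated SMADs, had few peaks. That at its 5′ end was 919 bp wide, contained the only listed start, and had a fold enrichment of 18.7, a −log10 q of 51.3 and a pileup of 49 (36.2 to 64.8). LOC107985152 had an end within 1 kb of it. The other, 12.5 kb upstream at an end of LOC124904303 and inside LOC107985152, had a fold of 4.82 and a pileup of 10 (4.79 to 18.4).

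The inhibitory SMADs had 15 of the 45 peaks and the strongest of all. SMAD7 (chr18:48919853-48950965, minus strand), which competes for the activated receptor and recruits ubiquitin ligases to it, had 9 peaks around a gene of 31.1 kb. Its 5′ end peak, chr18:48948586-48953202, was the widest of the 45 at 4617 bp and had the highest fold of the 5′ end peaks, 60.3, with a −log10 q of 238.9 and a pileup of 153 (129.7 to 179.3). The peak contained the outer start and also reached past the second listed start, and its summit was 1914 bp upstream of the gene.

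The peak with the highest fold near any of the 10 genes lay 14.6 kb beyond the 3′ end of SMAD7. It spanned chr18:48904178-48905629 inside the long non-coding gene LOC124904355, with a fold enrichment of 168, a −log10 q of 870.4 and a pileup of 435 (395.1 to 477.9), and ranked 57 of the 54389 peaks. A second peak inside LOC124904355, 17.6 kb beyond the 3′ end, had a fold of 39.0, and a peak 17.6 kb upstream of SMAD7 had a fold of 62.3 and a pileup of 144 (121.4 to 169.5). None of these had a gene end within 1 kb. Closer to the gene the distal peaks were weaker, at 12.2-fold 5.18 kb upstream and 11.2-fold inside, and the 3 others inside ranged from 3.97 to 4.63.

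SMAD6 (chr15:66702236-66782849, plus strand), which acts mainly on the BMP branch, had 6 peaks, of which 2 were at the 5′ end. The first, chr15:66700886-66702561, contained the start and was enriched 9.02-fold with 23 fragments (14.6 to 34.5). The second, chr15:66702992-66704341, began 756 bp past the start and was stronger, at 17.7-fold with 46 fragments (33.7 to 61.4). GTCTAGAC, printed above, lies 12 bases before the start, within the first interval. An internal peak had a fold of 13.6, and the 3 others around SMAD6 ranged from 4.12 to 5.95.

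Ordered by the fold of the strongest 5′ end peak, the genes ran SMAD7, SMAD3, TGFB1, SMAD2, TGFBR1, TGFB2, SMAD4, SMAD6, TGFBR2 and TGFB3. Intervals were obtained for each fold from the Poisson interval of its pileup, with the control level taken as fixed. By these, SMAD7 (51.2 to 70.6) overlapped SMAD3 (42.3 to 58.9) but lay above TGFB1 (36.3 to 47.0) and SMAD2 (31.7 to 43.8). The intervals of SMAD3, TGFB1 and SMAD2 overlapped one another. SMAD2 did not overlap TGFBR1 (19.8 to 31.4), which overlapped TGFB2, SMAD4, SMAD6 and TGFBR2. TGFB3 (5.30 to 10.4) stood below all others. Each of the upper 4 genes lay above all of the next 5, and the order within those 5 is not resolved at this depth. The pileups gave a partly different order, since TGFB1 had 236 fragments but also the highest control level of the 10 peaks.

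**Figure D2:**
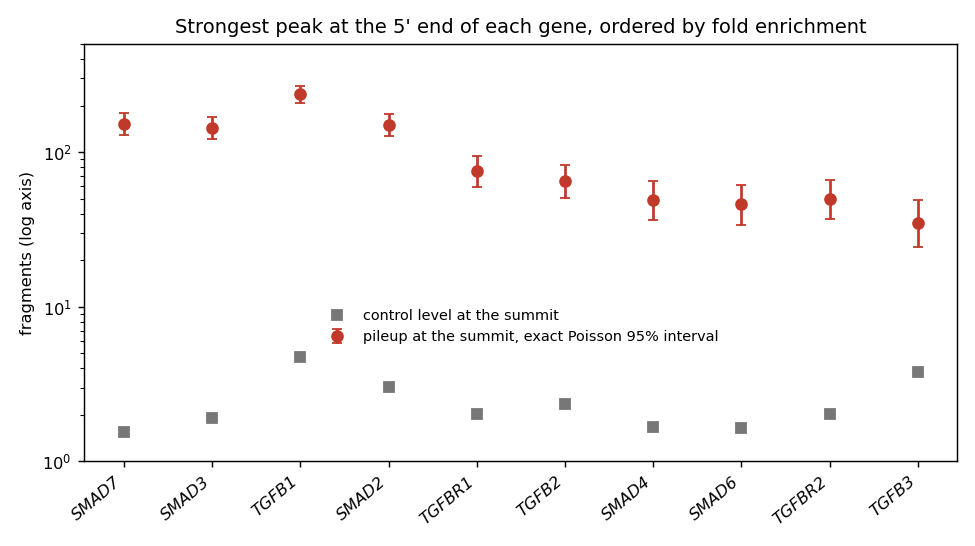
Pileup at the strongest 5′ end peak of each gene (red points, with exact Poisson 95% intervals) and the control level there (grey squares), in fragments on a log axis, with genes ordered by fold enrichment. Pileups range from 35 fragments at TGFB3 to 236 at TGFB1, while the control levels stay between 1.55 and 4.73.

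Set beside all genes with a 5′ end peak, the folds of 5 of the 10 genes lay between the quartiles, those of SMAD7, SMAD3, TGFB1 and SMAD2 lay above the upper one, and that of TGFB3 lay below the lower one. Their median fold was 22.4, against 17.5 over all 9715 genes of known strand that had one, whose quartiles were 9.30 and 30.2. A 5′ end peak with a fold over 10 was found at 9 of the 10 genes, all but TGFB3, and at 44.5% of genes with a known strand. A fold over 50 at the 5′ end was reached by SMAD7 and SMAD3, against 4.67% of genes. SMAD3 was at the limit itself, with 50.1 and an interval of 42.3 to 58.9. With distal peaks included, 4 of the 10 genes (TGFB1, SMAD2, SMAD3 and SMAD7) had a peak with a fold over 50 within 20 kb, against 15.0% of protein-coding genes.

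Over all 45 peaks, the median fold was 12.3 and the range 3.94 to 168, against a median of 9.63 for all peaks. The 11 peaks at 5′ ends had a median fold of 19.6 and a median width of 1676 bp, and the 34 distal ones had medians of 10.9 and 561 bp. All peaks of the list that lay at ends of protein-coding genes had medians of 15.4 and 960 bp. Wide peaks were frequent near the 10 genes, since 14 of 45 (31.1%) exceeded 1 kb, against 17.1% of all peaks, and 9 of those 14 were at a 5′ end. Distal peaks within 1 kb of an end of another gene numbered 6, with a median fold of 8.70, and the other 28 had a median of 11.1.

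**Figure D3:**
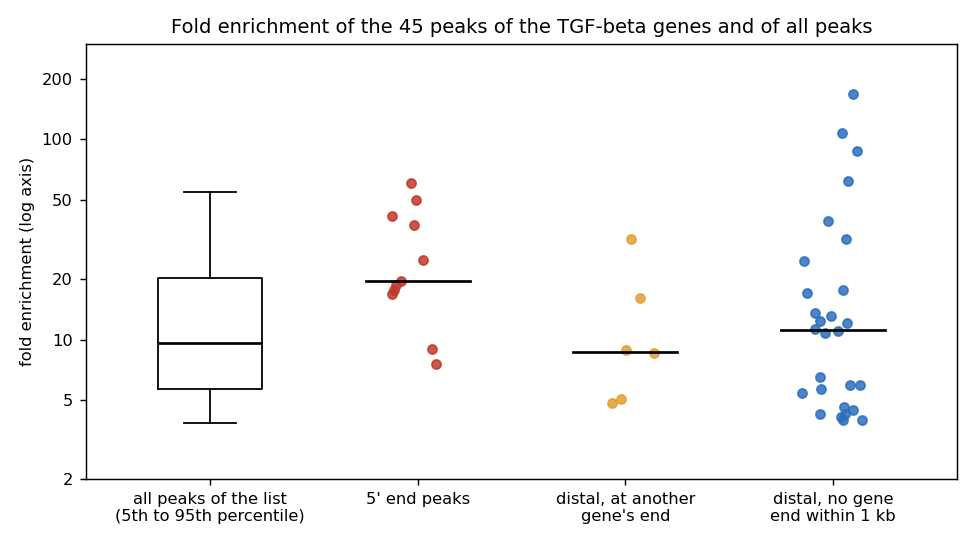
Fold enrichment on a log axis of the 45 peaks by class, 1 point per peak, with bars at the medians. The box shows all 54389 peaks, with its line at the median of 9.63, its edges at the 25th and 75th percentiles and its whiskers at the 5th and 95th. The 4 highest points are distal peaks with no gene end within 1 kb.

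The number of peaks ranged from 1 at TGFB2 to 10 at SMAD3. The median was 3 peaks per gene, against 2 over all protein-coding genes, and the median density was 3.42 against 2.88 peaks per 100 kb searched. SMAD7 and TGFB1 were the densest, at the 95.7th and 92.9th percentiles of all protein-coding genes. Among genes of like length, SMAD7 with 9, TGFB1 with 7 and SMAD3 with 10 peaks were above the 90th percentile, which is 6, 6 and 7 peaks, whereas TGFB2 with 1 peak was below the lower quartile of 2.

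**Figure D4:**
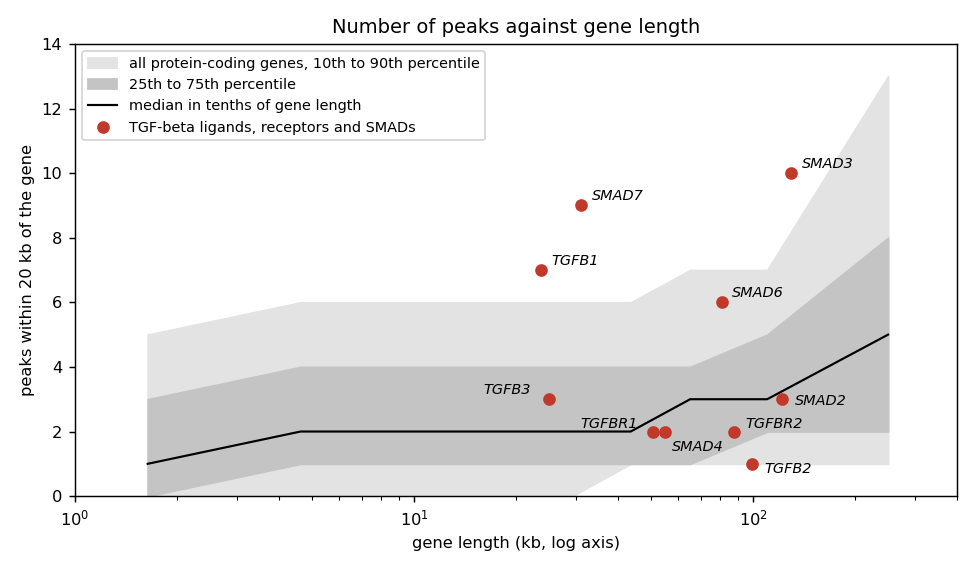
Number of peaks within 20 kb against gene length in kb on a log axis. Red points are the 10 genes, the line is the median of all protein-coding genes by decile of gene length, and the bands are the 25th to 75th and 10th to 90th percentiles, so that SMAD3, SMAD7 and TGFB1 are seen above the outer band.

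RefSeq lists 26 transcript starts for the 10 genes, 8 of them for TGFBR1, and 22 had a peak interval within 1 kb. All 8 starts of TGFBR1 are among these 22 and lie near the same 5′ end peak. Shares over all starts or all genes were not computed for the counts of starts and summits given here. The summits were less tightly placed. The interval contained the outer start in 8 genes, but the summit of a 5′ end peak was within 1 kb of the outer start in 6, namely TGFB3, TGFBR2, SMAD2, SMAD3, SMAD4 and SMAD6. At SMAD6 this held only for the weaker peak of fold 9.02, with its summit 564 bp before the start. The summit of the stronger SMAD6 peak, of fold 17.7, lay 1221 bp past the only listed start. At TGFB1 and TGFB2 the summit lay in the gene body and at SMAD7 upstream, all more than 1 kb from any listed start, whereas at TGFBR1 it was close to an inner start. With every listed start counted, 7 genes had a summit within 1 kb.

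Motifs were searched on both strands in the 300-base window around each listed start (250 bases before and 50 after). Of the 26 windows, 20 overlapped a peak, 6 of these from TGFBR1 and partly overlapping one another. Over all genes, 14767 of 35116 windows overlapped a peak. Any overlap counted, down to 7 bases at the second start of TGFB3. Matches were counted over the whole window, so a match may lie outside the peak. GGAA was present in 16 of the 20, against 95.4% of the 14767 such windows of all genes that overlapped a peak. The longer GGAAG, which contains it, was in 10 of 20, against 77.9%. CGGAAG, which contains both, was in 2 of 20, at TGFBR1 and SMAD2, against 33.7% of windows with a peak and 9.17% of windows without. The windows without GGAA were those of SMAD6 and of the fifth, sixth and seventh starts of TGFBR1. The seventh was the only window of the 26 to hold a peak summit, and its GC content was 80.7%.

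GTCT, the SMAD box, was in 15 of the 20 windows, against 79.8%. The palindrome GTCTAGAC, which contains it, was in the SMAD6 window alone, and is held by 0.115% of all windows that overlap a peak and 0.202% of all 35116 windows. TGANTCA was found in 1 of the 20, at TGFBR2, against 4.67%. These are letter matches in windows that mostly miss the summits, and they do not show which bases were bound.

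The other genes of the TGF-β superfamily pathway, 84 genes in 7 roles, were counted in the same way at either gene end. A gene-end peak was present at 59 of 84 (70.2%), against 62.1% of all protein-coding genes. The lists were chosen by hand with earlier results known, so the shares describe these lists only. The median fold at those 59 was 22.0. Among the other receptors and co-receptors, 8 of 12 had such a peak, with ACVR2A at 104-fold, ACVR1 at 48.8-fold and BMPR2 at 47.0-fold, while the co-receptors TGFBR3 (betaglycan) and ENG (endoglin), the endothelial type I receptor ACVRL1 and the anti-Müllerian hormone receptor AMHR2 had none there. Their highest folds within 20 kb ranged from 13.4 at AMHR2 to 72.3 at ENG. ACVR2A and ACVR1 encode activin receptors of type II and type I, and BMPR2 the type II receptor for BMPs. The SMADs of the BMP branch all had one, at 44.7-fold for SMAD1, 31.4-fold for SMAD5 and 12.7-fold for SMAD9.

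Intracellular regulators of the pathway had gene-end peaks in 14 of 16 cases, against the 62.1% of all protein-coding genes. The highest were FKBP1A, whose product holds the type I receptor inactive, at 84.2-fold, the feedback inhibitor PMEPA1 at 62.1-fold and the ubiquitin ligase SMURF1, a partner of SMAD7, at 57.8-fold. TGIF1 and PPM1A, a SMAD phosphatase, had none at a gene end, but had peaks of 56.6-fold and 34.6-fold within 20 kb. Textbook target genes had one in 12 of 13 cases, with JUNB at 54.6-fold, ID1 at 45.1-fold and the epithelial-mesenchymal transition factor SNAI1 at 31.1-fold, and the cell cycle inhibitor CDKN1A had none there and a highest fold of 23.8 within 20 kb.

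The extracellular genes of the pathway were counted last, beside the same 62.1% of all protein-coding genes. Latency and activation genes had a gene-end peak in 6 of 11 cases, the highest at the integrin subunit ITGAV (16.6-fold), the activator THBS1 (16.4-fold) and the latent TGF-β binding protein LTBP1 (16.4-fold). LTBP4, the protease FURIN and the integrin subunits ITGB6 and ITGB8 were among those without, and their highest folds within 20 kb were 25.9, 32.4, 9.08 and 5.69. Other ligands of the superfamily had one in 12 of 23 cases. The highest were the activin subunit INHBB (51.5-fold), BMP6 (39.5-fold) and the activin subunit INHBA (22.0-fold). Of the 11 without, NODAL, BMP3, BMP5 and MSTN had no peak within 20 kb either. The highest folds within 20 kb of the others ranged from 14.6 at LEFTY2 to 38.1 at BMP7. Of the extracellular antagonists, 4 of 6 had a gene-end peak. These included the BMP antagonists NOG at 85.4-fold and CHRD at 53.9-fold and the activin antagonist FST at 17.3-fold. FSTL3 and DCN had none at a gene end but peaks of 9.73-fold and 96.9-fold within 20 kb.

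**Figure D5:**
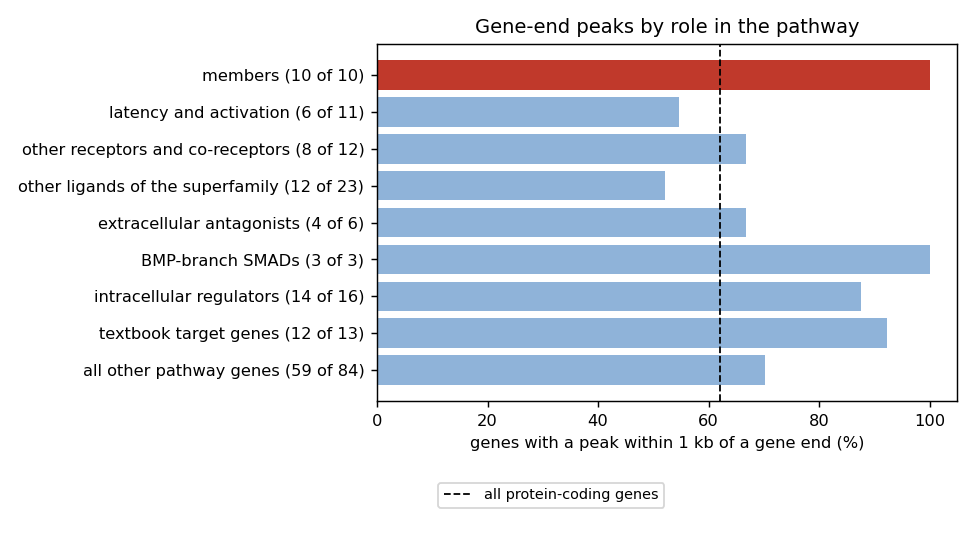
Share of genes with a peak within 1 kb of a gene end, in percent, by role in the pathway, with the counts beside each name. The dashed line is the share of all protein-coding genes, 62.1%, and the bar of the 10 core genes stands at 100%.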

How the data were processed

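The 1 anti-Flag immunoprecipitate and 1 input library were mapped to their conditions from the sample labels. The authors deposited a peak list of the immunoprecipitate, with the interval, the summit, the fold enrichment as a ratio to the control, and −log10 of the p-value and of the q-value. The submitters' processing notes name Bowtie2 2.4.1, SAMtools, MACS2 2.2.7.1 and deepTools 3.5.0, and the builds hg38 and GRCh38. The lowest −log10 q was 1.30. Peak calling on 1 library leaves the reproducibility of a peak unknown.

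Gene spans, strands and promoter windows came from RefSeq tables (GRCh38), and positions are 1-based. The pileup and control level at each summit were solved from the fold, taken as pileup plus 1 over control plus 1, and the Poisson p-value. Solved pileups were whole numbers to within 0.00914. The solver and the overlap functions were tested on simulated data. Poisson intervals are at 95% and cover counting error only. Gene-end peaks had an interval within 1 kb of an outer gene end. The 10 genes and the 84 pathway genes were chosen with earlier results of these data known. Up to 3 pathway genes per role with the highest fold, and up to 4 without a gene-end peak, are named. Neighbouring genes are named where they have an end within 1 kb of a described peak or hold its summit. Alternatives covered fold and q thresholds, the window, the flank and the use of summits. No genome sequence was used here, so motifs at summits outside promoter windows were not searched. Scripts ran under Python 3.11.15 with scipy 1.17.1, pandas 2.3.3, matplotlib 3.10.9 and numpy 2.4.6.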

Additional observations from a re-analysis of the deposited data

How the results depend on the processing

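Of 38 alternatives over 6 results, 31 stayed within a factor of 1.5 of the main value, for the counts and the median fold alike. With only peaks over 10-fold, the 45 peaks became 27, the 34 distal peaks 18 and the median fold 19.6, and TGFB3 lost its 5′ end peak. With a flank of 50 kb, the 45 peaks became 72 and the distal peaks 61. With the summit in place of the interval, 6 genes kept a gene-end peak, with 6 such peaks, since the summits at TGFB1, TGFB2, TGFBR1 and SMAD7 are more than 1 kb from the outer start. By the same rule, 54 of the 84 other pathway genes had a gene-end peak, in place of 59. By summits, then, 6 of the 10 genes stand beside 54 of those 84. The share over all protein-coding genes was not computed for summits. A window of 0.5 kb left 9 gene-end and 36 distal peaks. It removed the TGFBR1 peak and the stronger SMAD6 peak, and the SMAD6 fold at the 5′ end became 9.02 in place of 17.7. No paired analysis was possible because the study has 1 immunoprecipitate and 1 input, and no result comes from a test. A pileup near 10 fragments, as at the weakest peaks, has an interval of 4.79 to 18.4, so the folds of such peaks are imprecise.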

Other observations

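Several of the genes share a chromosome, and the stretches between them, outside both 20 kb flanks, also held peaks. Between SMAD6 and SMAD3 on chromosome 15, 242.8 kb held 19 peaks, the strongest of fold 61.9 (pileup 150, exact Poisson 95% interval 127.0 to 176.0) inside SMAD3-DT, the divergent transcript of SMAD3. Between SMAD2 and SMAD7 on chromosome 18, 949 kb held 45 peaks, the strongest of fold 62.1 (pileup 166, 141.7 to 193.3) inside CTIF. Between SMAD7 and SMAD4, 2039 kb held 58 peaks, the strongest of fold 72.8 (pileup 184, 158.4 to 212.6), 0.571 kb from an end of LIPG. The density was 7.83, 4.74 and 2.84 peaks per 100 kb in these stretches, in that order, against 4.08 around the 10 genes.

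Beyond the 3′ end of SMAD2, the peak of fold 87.2 had a further neighbour 41.7 kb from the gene with a fold of 60.4 (pileup 137, 115.0 to 162.0). In the 20 to 100 kb upstream of TGFBR1, 1 peak of fold 7.01 was found, and in the same range upstream of TGFB3 the 2 peaks had a maximum of 5.06. These values describe 1 library and were not assigned to any gene.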
